A study of Mus musculus with 8 samples.

Results

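The 10 genes that are described here hold back the cell cycle. They were examined in multipotent progenitors, early blood cells of the bone marrow that can still form lymphoid and myeloid cells. The genes are the CDK inhibitor genes Cdkn1a, Cdkn1b, Cdkn1c, Cdkn2a, Cdkn2b, Cdkn2c and Cdkn2d and the RB family genes Rb1, Rbl1 and Rbl2. The members were every probe set (a group of array probes read as 1 value) that the platform annotation assigned to exactly 1 of these genes, which gave 17 of the 45101 probe sets in the table and 10 of 18193 genes. Expression was measured on 8 arrays, 4 from wild type mice and 4 from FLT3-ITD mice, whose receptor tyrosine kinase FLT3 has an internal tandem duplication. All mice were female, of C57BL6 background and 8 to 10 weeks old, and per the labels the sorted bone marrow cells carried CD48, c-Kit and Sca-1 on their surface but neither CD150 nor lineage markers. The sources used here do not say how the duplication was introduced, or whether an array stands for 1 mouse or a pool. Each genotype had replicates 1, 2 and 3 and a further one numbered 1 with the tag 037, called replicate 037 here. No source used here explains that tag. Since separate mice are not stated, the p-values below cover the variation among these arrays, part or all of which may be technical.

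Cyclin-dependent kinases drive a cell from G1 into S phase by phosphorylating RB proteins, which then release E2F transcription factors. The INK4 inhibitors, encoded by Cdkn2a to Cdkn2d, block the cyclin D kinases CDK4 and CDK6. The CIP/KIP inhibitors, encoded by Cdkn1a (p21), Cdkn1b (p27) and Cdkn1c (p57), bind a wider range of cyclin-kinase complexes. In blood stem and progenitor cells these genes are known for their part in quiescence and in the choice between self-renewal and division.

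No member passed the test between genotypes. Of the 10 genes, 7 had a probe set bright enough to be tested, and 0 of these were higher and 0 lower in FLT3-ITD by limma at an adjusted p of 0.05. Over all 10763 tested genes, 65 or 0.604% passed. Of the 12 member probe sets bright enough to be tested one by one, 0 passed as well, against 0.416% of all 19211 tested probe sets. At an unadjusted limma p under 0.05 there was 1 of the 7 member genes, Cdkn1b, where 9.58% of all tested genes stood. The 2 genotypes had non-overlapping values for 1 of the 7, again Cdkn1b, where this held for 6.22% of all tested genes. Both shares are those of 1 gene and say nothing particular of the family. A bright enough probe set lay above the median of its array on at least 4 of the 8 arrays.

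For the probe sets that stand for these 7 genes, the unadjusted 95% intervals for FLT3-ITD minus wild type all lay between −0.86 and 0.90 on the log2 scale, inside a 2-fold change in either direction. This bound is one on RMA values, the summarised array signal. It does not hold for every tested member probe set: the interval of Rbl2 1418146_a_at was −1.17 to −0.03. The smallest difference among the 65 genes past the test was 0.70, and the largest among the member genes was 0.44. Differences were below 0 in 5 of the 7 member genes and in 10 of the 12 tested member probe sets. Of all tested genes 46.3% lay below 0, and of all tested probe sets 48.7%. Probe sets of 1 gene are not independent, and 1 of the 10 was Cdkn1a 1424638_at at −0.01. A shared direction of the family was not tested. The median difference was −0.32 over the 7 genes and 0.02 over all tested genes. The values came from bulk RNA, so fewer cells of a type and less RNA per cell cannot be told apart.

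**Figure D1:**
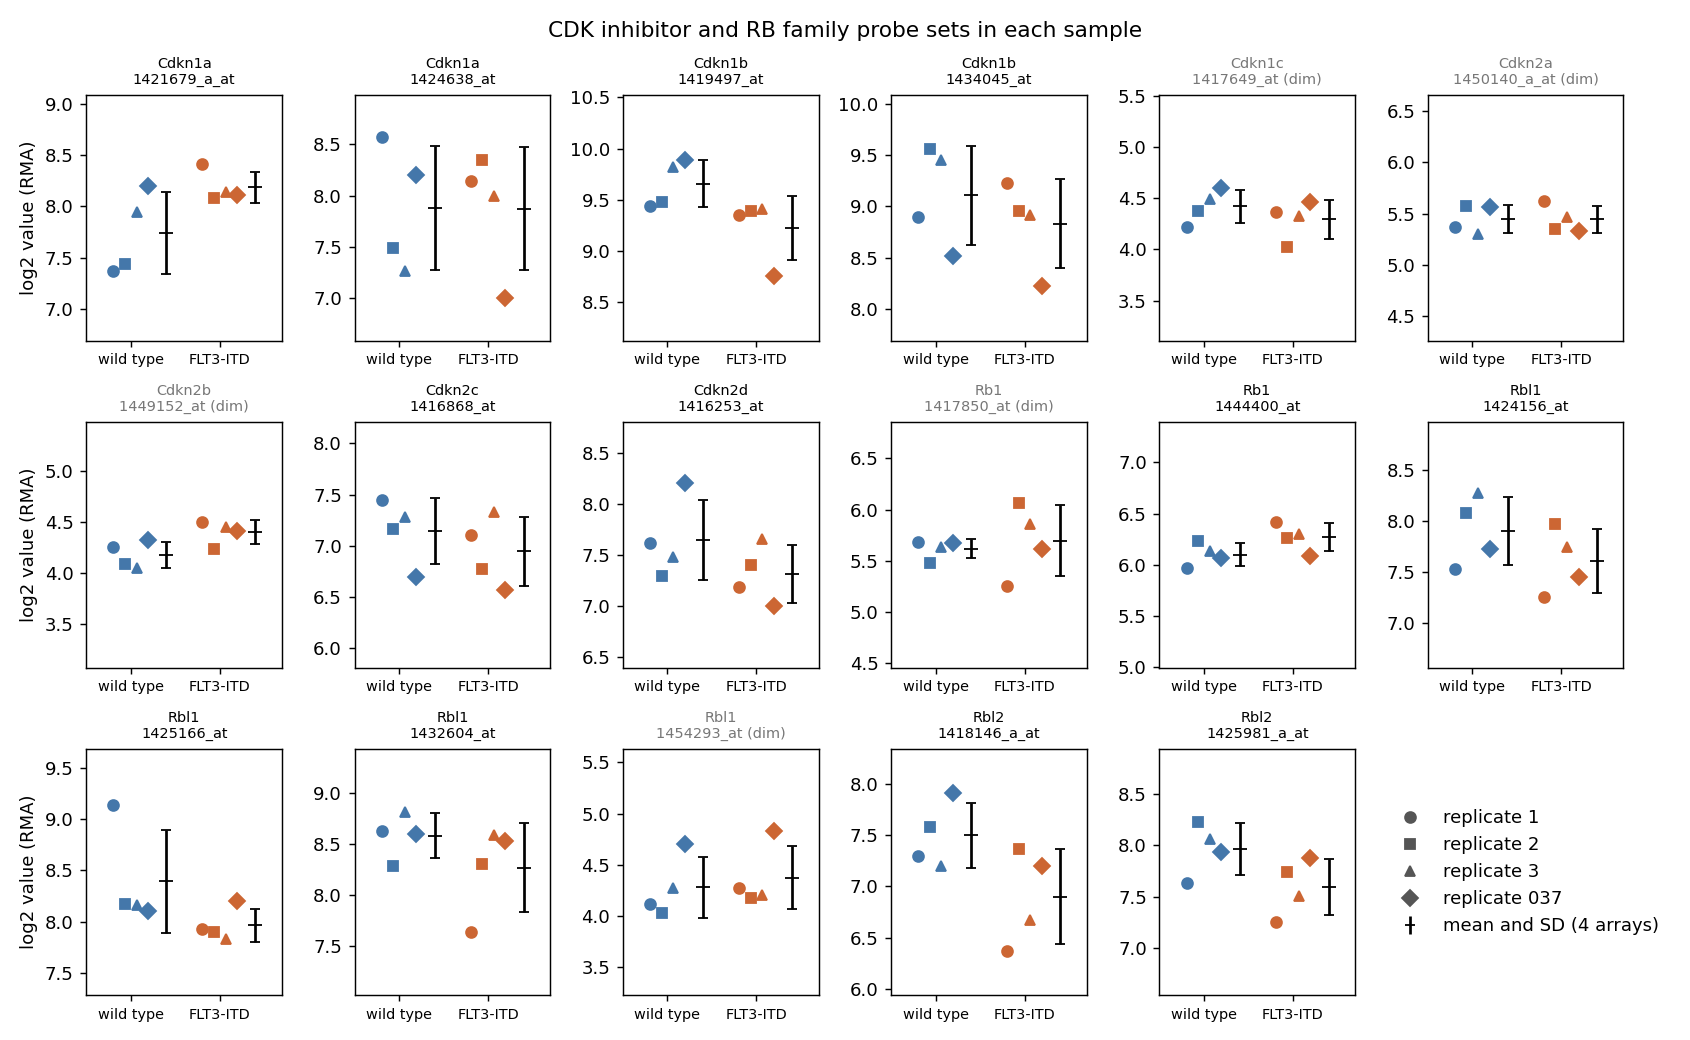
Log2 RMA value of the 17 member probe sets on each of the 8 arrays, 1 panel per probe set with an axis of the same height, wild type in blue and FLT3-ITD in orange, and symbols for the replicate; the black mark and bar give mean and SD of 4 arrays. Grey titles mark the 5 probe sets too dim to be tested, and in the panel of Cdkn1b 1419497_at the 4 FLT3-ITD values (8.76 to 9.41) lie below the 4 wild type values (9.44 to 9.89).

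The arrays were alike in most respects. Any pair correlated at 0.948 to 0.981 over all probe sets, but FLT3-ITD replicate 1 reached no more than 0.960 with any other array. The log2 signal of Gapdh control probes at the 3′ end exceeded that at the 5′ end, a measure of RNA integrity, by 2.99 in FLT3-ITD replicate 037 and by 1.82 to 2.29 elsewhere. For beta-actin the same measure was 0.17 in that array and −0.48 to −0.32 elsewhere. Among the genes of the gate, Kit read 9.28 to 9.80 in wild type and 8.77 to 9.29 in FLT3-ITD, Cd48 9.76 to 10.11 and 10.82 to 11.08, and Slamf1, which encodes CD150, was below the median of every array at 4.24 to 5.75 and 4.36 to 4.61. The Sca-1 gene Ly6a was looked for but had no probe set assigned to it alone, so it has no value here. Flt3 was lower in FLT3-ITD by −1.17 ± 0.20 (SE; limma adjusted p = 0.0406). Marker lists of other cell types differed between genotypes too. The mean log2 value of 9 dendritic cell genes ranged from 6.40 to 6.65 in wild type and from 8.44 to 9.50 in FLT3-ITD, that of 7 monocyte and macrophage genes from 6.18 to 6.62 and 6.97 to 7.49, and that of 6 erythroid genes from 6.43 to 6.72 and 5.45 to 5.98. The lists of 9 neutrophil genes (6.58 to 7.89 and 5.49 to 7.42), 7 B cell genes (5.17 to 5.53 and 5.43 to 5.52), 7 T and NK cell genes (5.64 to 5.83 and 5.70 to 5.98) and 5 megakaryocyte genes (5.42 to 6.12 and 5.50 to 5.55) overlapped between genotypes. Single genes differed unevenly within the dendritic, monocyte and erythroid lists (log2, FLT3-ITD minus wild type). H2-Ab1 differed by 3.58 but Siglech by −0.02, Ccr2 by 3.62 but Lyz2 by 0.16, and Hbb-b2 by −2.76 but Klf1 by −0.03. The part of all these lists in the values below was not tested.

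Promoter sequences are shown for Cdkn1b, Cdkn1a and Rbl1, and none of the 3 genes passed the test. Values of Cdkn1b 1419497_at did not overlap between genotypes. Cdkn1a 1421679_a_at differed in the opposite direction, but 1424638_at of the same gene differed by −0.01 ± 0.36. Rbl1 is itself known as an E2F target. The sequences are the 100 bases before a RefSeq transcription start (build GRCm38.p6), with motif matches in capitals.
Cdkn1b, chr6:134920301-134920400, plus strand: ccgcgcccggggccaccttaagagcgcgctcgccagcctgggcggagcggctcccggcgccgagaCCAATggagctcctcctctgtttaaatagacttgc
Cdkn1a, upstream start, chr17:29090879-29090978, plus strand: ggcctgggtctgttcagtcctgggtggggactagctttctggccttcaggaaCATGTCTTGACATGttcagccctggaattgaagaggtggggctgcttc
Rbl1, chr2:157204535-157204634, minus strand: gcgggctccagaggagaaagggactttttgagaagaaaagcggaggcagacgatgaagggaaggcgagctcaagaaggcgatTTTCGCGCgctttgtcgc
The table holds 11 starts for 8 of the 10 members, all but Cdkn1c and Rb1. Each window was searched on both strands for 4 motifs, which do not overlap in the windows shown. A p53-type motif, CATG followed by any 6 bases and a further CATG, was found at 1 of the 11 starts, the upstream one of Cdkn1a, and in 0.167% of all 32851 such windows in the table. An E2F motif, written as TTTCGCGC, TTTCCCGC, TTTGGCGC or TTTGCCGC, was found at 2 of the 11, those of Rbl1 and of the upstream start of Cdkn2a, and in 0.846% of all windows. The CCAAT box was found at 1 of the 11, that of Cdkn1b, and in 18.9% of all windows. The STAT motif TTCNNNGAA was found at 0 of the 11 and in 2.55% of all windows. A match describes the letters only.

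Among the CIP/KIP genes, Cdkn1b, which encodes p27, had the smallest p of the 7 genes in the gene fit. In the probe set fit the smallest member p was that of Rbl2 1418146_a_at (limma adjusted p = 0.535), ahead of Cdkn1b 1419497_at (limma adjusted p = 0.556). The brighter Cdkn1b probe set, 1419497_at, read 9.44, 9.48, 9.82 and 9.89 in wild type replicates 1, 2, 3 and 037, and 9.35, 9.39, 9.41 and 8.76 in FLT3-ITD replicates 1, 2, 3 and 037. All FLT3-ITD values lay below all wild type values, but 3 of them by little, while replicate 037 lay far below. The means were 9.66 ± 0.23 and 9.23 ± 0.32 (log2, SD, n = 4 each). The difference was −0.43 ± 0.19 (SE), or 0.742 times wild type with an unadjusted 95% interval of 0.551 to 0.998, and it did not pass (limma adjusted p = 0.520; exact two-sided permutation p = 0.0286, the smallest that 4 against 4 samples can give).

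Part of this difference came from the array with the highest 3′ to 5′ differences of the controls, whose part in it was not tested beyond leaving the array out. Without FLT3-ITD replicate 037 the Cdkn1b difference was −0.27 ± 0.16, and with both arrays tagged 037 left out it was −0.20 ± 0.15 (SE), an alternative chosen after seeing the data. The second Cdkn1b probe set, 1434045_at, read 8.90, 9.56, 9.45 and 8.52 in wild type and 9.23, 8.96, 8.92 and 8.22 in FLT3-ITD, in the same order of replicates. Here replicate 037 was the lowest array of both genotypes, and the genotypes overlapped. Its difference was −0.28 ± 0.28 (limma adjusted p = 0.828), and −0.07 without FLT3-ITD replicate 037.

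For Cdkn1a, which encodes p21, a known target of p53, the 2 probe sets gave different estimates. Probe set 1421679_a_at read 7.37, 7.44, 7.95 and 8.20 in wild type replicates 1, 2, 3 and 037, and 8.41, 8.08, 8.14 and 8.11 in FLT3-ITD. The FLT3-ITD values were close together and above 3 of the 4 wild type values. The difference was 0.44 ± 0.20 with an interval of −0.02 to 0.90 and did not pass (limma adjusted p = 0.549).

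Probe set 1424638_at of the same gene read 8.57, 7.49, 7.26 and 8.20 in wild type and 8.14, 8.35, 8.00 and 7.0 in FLT3-ITD. Both genotypes spanned more than 1 log2 unit and covered the same range. The difference was −0.01 ± 0.36 with an interval of −0.83 to 0.82 (limma adjusted p = 0.998), so that a change as large as that of the other probe set lay within its error. As the mean over both probe sets, Cdkn1a differed by 0.22.

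Cdkn1c, which encodes p57, an inhibitor known from quiescent stem cells, had 1 probe set and lay below the array median on all 8 arrays. It read 4.22, 4.38, 4.49 and 4.60 in wild type and 4.37, 4.02, 4.33 and 4.46 in FLT3-ITD, against array medians of 5.98 to 6.05. The genotypes overlapped, and the difference was −0.13 ± 0.14 in the fit without the filter on dim probe sets (limma adjusted p = 0.858; exact permutation p = 0.343). A dim value leaves the level itself unknown.

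**Figure D2:**
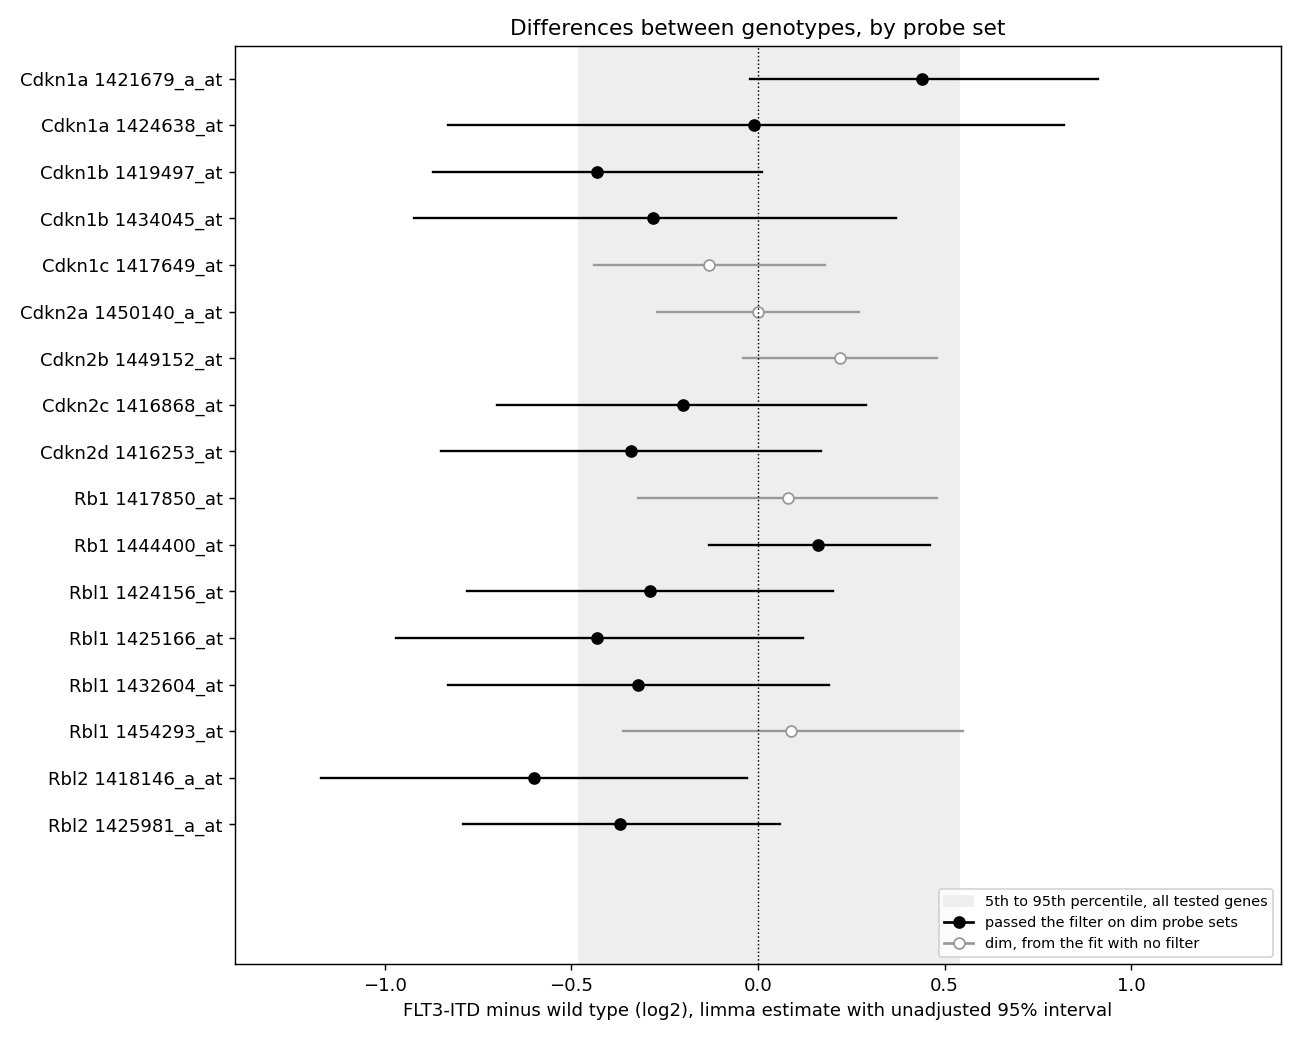
Log2 difference between genotypes (FLT3-ITD minus wild type) for each of the 17 member probe sets, as limma estimates with unadjusted 95% intervals; filled points passed the filter on dim probe sets and open grey points come from the fit without it. The grey band spans the 5th to 95th percentile of all tested genes (−0.48 to 0.54), and of the member probe sets the point of Rbl2 1418146_a_at (−0.60) lies outside it.

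Of the INK4 genes, Cdkn2d and Cdkn2c were bright enough to be tested. Cdkn2d, which encodes p19INK4d, read 7.62, 7.30, 7.48 and 8.20 in wild type replicates 1, 2, 3 and 037, and 7.19, 7.40, 7.66 and 7.0 in FLT3-ITD. The genotypes overlapped, and replicate 037 was the highest wild type and the lowest FLT3-ITD array. The difference was −0.34 ± 0.22 (limma adjusted p = 0.701), and −0.05 ± 0.18 with both arrays tagged 037 left out. Cdkn2c, which encodes p18INK4c, known to limit the self-renewal of mouse blood stem cells, read 7.45, 7.16, 7.28 and 6.70 in wild type and 7.11, 6.77, 7.33 and 6.57 in FLT3-ITD. Replicate 037 was the lowest array in both genotypes. The difference was −0.20 ± 0.22 (limma adjusted p = 0.823), and −0.08 without FLT3-ITD replicate 037.

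The neighbouring genes Cdkn2a and Cdkn2b, known to be silenced by Polycomb proteins in stem and progenitor cells, lay below the array median on all 8 arrays. Cdkn2a encodes 2 proteins, p16INK4a and p19ARF, from separate first exons, and its 1 probe set was read as a single value, so they were not told apart here. It read 5.37, 5.57, 5.30 and 5.56 in wild type and 5.62, 5.35, 5.47 and 5.33 in FLT3-ITD. The genotypes covered the same range, with a difference of 0.00 ± 0.12 and an interval of −0.27 to 0.27 in the fit without the filter (limma adjusted p = 0.998; exact permutation p = 1.00). Cdkn2b, which encodes p15INK4b, read 4.25, 4.09, 4.05 and 4.32 in wild type and 4.50, 4.23, 4.45 and 4.41 in FLT3-ITD. Of the FLT3-ITD values 3 lay above all wild type values, and the difference was 0.22 ± 0.11 in the same fit (limma adjusted p = 0.687; exact permutation p = 0.0857).

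The RB family has 3 genes, whose products bind and silence E2F factors. Rbl2 encodes p130, the member known to act in resting cells as part of the DREAM complex. Its probe set 1425981_a_at read 7.63, 8.23, 8.06 and 7.94 in wild type replicates 1, 2, 3 and 037, and 7.25, 7.74, 7.51 and 7.88 in FLT3-ITD. The ranges overlapped, with FLT3-ITD replicate 1 the lowest array. The difference was −0.37 ± 0.18 (limma adjusted p = 0.588), and −0.25 without FLT3-ITD replicate 1.

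The other Rbl2 probe set, 1418146_a_at, read 7.30, 7.58, 7.20 and 7.91 in wild type and 6.37, 7.36, 6.67 and 7.20 in FLT3-ITD. Replicates 1 and 3 of FLT3-ITD lay below every wild type array, and the other two lay within the wild type range. The difference was −0.60 ± 0.25 with an interval of −1.17 to −0.03, the widest shift among the 12 tested member probe sets, and it did not pass (limma adjusted p = 0.535). Without FLT3-ITD replicate 1 it was −0.42. Both Rbl2 probe sets kept a difference below 0 in every alternative tried, some of which cannot change a difference.

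Rbl1 encodes p107, the RB protein known to rise in cycling cells. The brightest of its probe sets, 1432604_at, read 8.63, 8.28, 8.81 and 8.60 in wild type and 7.64, 8.30, 8.59 and 8.53 in FLT3-ITD. Only FLT3-ITD replicate 1 lay below the wild type range. The difference of −0.32 ± 0.22 (limma adjusted p = 0.729) became −0.11 without that array.

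Probe set 1425166_at of Rbl1 read 9.14 in wild type replicate 1 and 8.17, 8.16 and 8.10 in the other wild type arrays, and 7.93, 7.90, 7.83 and 8.20 in FLT3-ITD. Its difference of −0.43 ± 0.24 (limma adjusted p = 0.648) fell in size to −0.18 without that high wild type array. Probe set 1424156_at read 7.53 to 8.27 in wild type and 7.26 to 7.97 in FLT3-ITD, with a difference of −0.29 ± 0.22 (limma adjusted p = 0.749), which was −0.17 without wild type replicate 3. It was −0.18 when FLT3-ITD replicate 1 was left out. The remaining one, 1454293_at, was dim on all 8 arrays, at 4.03 to 4.70 and 4.18 to 4.83.

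Rb1, which encodes the retinoblastoma protein itself, was read by 1 tested probe set close to the array median. Probe set 1444400_at read 5.97, 6.23, 6.13 and 6.07 in wild type and 6.42, 6.26, 6.30 and 6.09 in FLT3-ITD. The FLT3-ITD values were shifted upward but overlapped, with a difference of 0.16 ± 0.12 and an interval of −0.12 to 0.44 (limma adjusted p = 0.738). Its other probe set, 1417850_at, was above the array median on 1 of the 8 arrays, at 5.48 to 5.68 in wild type and 5.25 to 6.06 in FLT3-ITD, with a difference of 0.08 ± 0.17 in the fit without the filter.

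**Figure D3:**
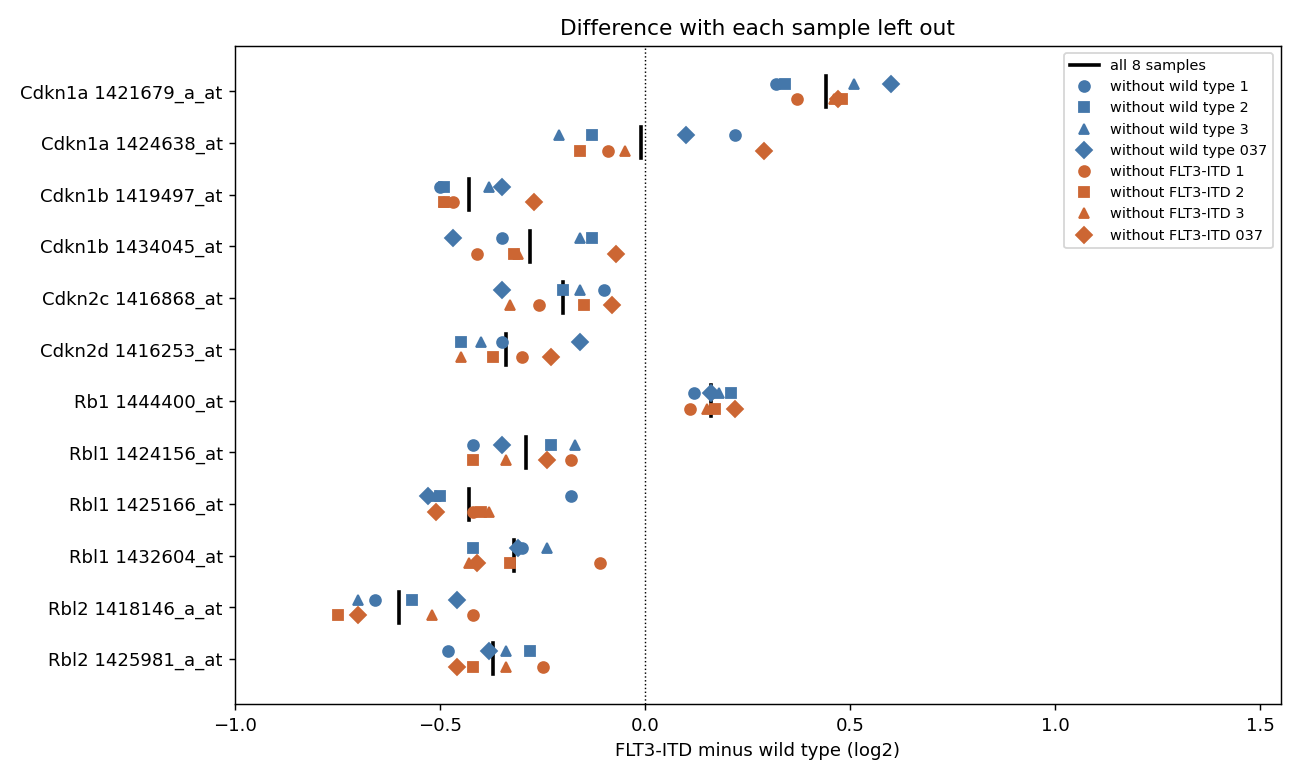
Difference FLT3-ITD minus wild type (log2) for the 12 tested member probe sets, with all 8 samples (black line) and with each sample left out in turn (blue, a wild type sample; orange, a FLT3-ITD sample; symbol, its replicate). The Cdkn1b probe sets moved toward 0 without FLT3-ITD replicate 037 (−0.27 and −0.07). The values of Cdkn1a 1424638_at lay on both sides of 0 (−0.21 to 0.29).

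The tested genes whose pattern over the 8 arrays was most like that of Cdkn1b, by the root mean square difference of values centred on each gene's mean, were Vopp1 at 0.11, Clk1 at 0.13 and Slc30a9 at 0.13 log2 units. The median over all tested genes was 0.43. Each of the 3 read lower in FLT3-ITD without passing the test (limma adjusted p = 0.506, 0.573 and 0.517). This follows from how they were picked, since the pattern matched includes the difference of Cdkn1b between genotypes.

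The rest of the pathway was followed through 7 lists, chosen with earlier results of these data known, and 0 of their 89 tested genes passed the test in either direction, against 0.604% of all tested genes, so that a count of 0 is near the background. The catalytic side comprised 17 tested cyclin, CDK and CDC25 genes, with 10 differences above 0 and a median of 0.11. The smallest p values there belonged to Cdc25c, a phosphatase that activates CDK1, at −0.66 ± 0.28 (limma adjusted p = 0.509; −0.42 without FLT3-ITD replicate 1), and to Ccnd1, which encodes cyclin D1, at −0.73 ± 0.35 (limma adjusted p = 0.561; −0.36 without FLT3-ITD replicate 037). The other Cdc25c probe set differed by 0.15 ± 0.19 in the fit without the filter, and the mean over both by −0.25. Ccnd1 read 7.92 to 8.62 in wild type and 7.69 to 8.05 in FLT3-ITD replicates 1, 2 and 3, with replicate 037 apart at 6.41. Its other 2 probe sets differed by −0.27 ± 0.17 and −1.07 ± 0.28 in the fit without the filter. Cdk4 and Cdk6, the kinases that INK4 proteins bind, differed by −0.04 ± 0.12 and −0.21 ± 0.18.

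Of the 9 tested E2F and DP genes, 5 had differences below 0, with a median of 0.00. Values of the genotypes did not overlap for 3 of the 9, E2f6, E2f8 and E2f1. E2f8 differed by 0.20 (limma adjusted p = 0.645) and E2f1 by −0.16 (limma adjusted p = 0.732). In the other pathway lists Smad3 was the only gene without overlap. Over all tested genes this held for 6.22%. E2f6, which encodes a repressive E2F that does not bind RB proteins, had the smallest p of all 7 lists. It read 8.46, 8.23, 8.31 and 8.51 in wild type and 7.24, 7.61, 7.84 and 7.93 in FLT3-ITD. The genotypes did not overlap, and the difference was −0.72 ± 0.17, still short of the threshold (limma adjusted p = 0.147). Its other probe set, 1437914_at, differed by 0.17 ± 0.21 in the fit without the filter. Tfdp2, which encodes a dimer partner of E2F proteins, read 8.92 to 9.23 in wild type, and 8.27, 8.37, 9.0 and 8.39 in FLT3-ITD. Its difference was −0.63 ± 0.18 (limma adjusted p = 0.264), and −0.18, 0.05 and −0.20 at its other 3 probe sets.

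The next lists were E2F target genes and the DREAM and MuvB genes. Of 19 tested E2F targets of DNA replication, 8 differences lay above and 11 below 0, all between −0.25 and 0.47, with a median of −0.08 against 0.02 over all tested genes. Cdt1, which licenses replication origins, differed by 0.47 ± 0.25 (limma adjusted p = 0.612) and Mcm6, a subunit of the replicative helicase, by −0.19 ± 0.12 (limma adjusted p = 0.677). The Cdt1 difference was 0.23 without wild type replicate 037, and its other probe sets differed by −0.14 ± 0.24 and, for a dim one, 0.26 ± 0.11 in the fit without the filter. Of 7 tested DREAM and MuvB genes, 4 lay above 0, with a median of 0.05. There Mybl2, which encodes B-MYB, differed by −0.40 ± 0.22 and Foxm1, a driver of mitotic genes, by 0.27 ± 0.21 (limma adjusted p = 0.622 and 0.752). Mybl2 differed by −0.24 without FLT3-ITD replicate 1 and −0.60 without FLT3-ITD replicate 3, and Foxm1 by 0.10 without FLT3-ITD replicate 2 and 0.44 without FLT3-ITD replicate 1.

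Genes that act on the inhibitors themselves did not pass either. The ubiquitin ligase list, whose enzymes degrade p27 and p21, had 7 of 12 differences above 0 and a median of 0.02. In it Rbx1, a RING subunit of cullin ligases, differed by 0.59 ± 0.29, with FLT3-ITD replicate 037 highest at 7.85 (0.33 without it), and its scaffold Cul1 by 0.37 ± 0.20 (limma adjusted p = 0.578 and 0.612). Of 11 Polycomb genes, 9 lay below 0 with a median of −0.11, among them Phc1 at −0.32 ± 0.24 and Ring1 at −0.33 ± 0.28 (limma adjusted p = 0.738 and 0.773). Phc1 differed by −0.06 without FLT3-ITD replicate 1, and Ring1 by −0.19 without FLT3-ITD replicate 2 and −0.60 without FLT3-ITD replicate 037. Of 14 transcriptional regulators of CDK inhibitor genes, 9 lay below 0 with a median of −0.12. The smallest p values were those of Stat5a, a transcription factor downstream of FLT3-ITD, at −0.44 ± 0.16, and Smad3, which carries TGF-beta signals, at −0.38 ± 0.15 (limma adjusted p = 0.427 and 0.463). In the fit without the filter the other Stat5a probe set differed by −0.07 ± 0.40, and the other Smad3 probe sets by −0.43 ± 0.17 and 0.04 ± 0.17.

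**Figure D4:**
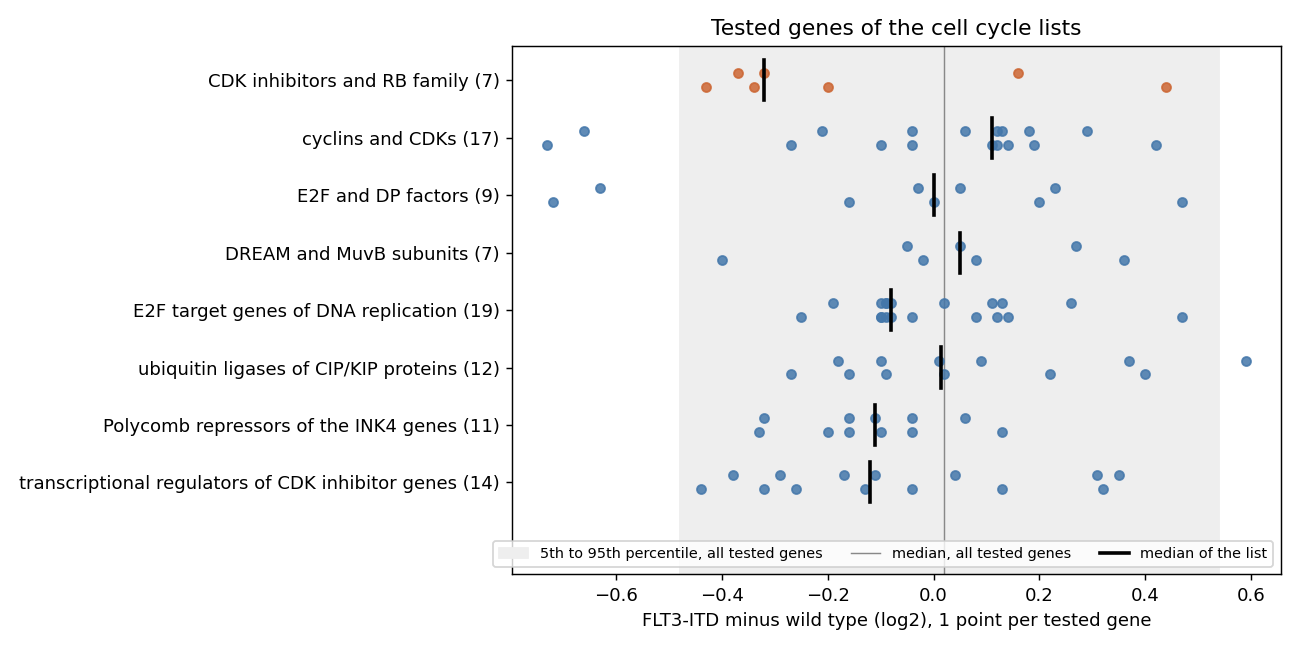
Difference FLT3-ITD minus wild type (log2) of each tested gene in the member family (orange) and the 7 pathway lists (blue), with the number of tested genes in brackets and the median as a black line; the grey band spans the 5th to 95th percentile of all tested genes (−0.48 to 0.54) and the grey line their median (0.02). All 7 member genes lie inside the band.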

How the data were processed

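The authors deposited log2 values made with RMA, per the submitters' processing notes, for 8 single-colour arrays; no version is stated there. Per the labels' protocols, Trizol RNA was amplified before labelling (NuGEN WT-Ovation Pico). Array medians were 5.98 to 6.05. Scanner files were not used here, and the number of arrays limits the precision.

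Of 45101 probe sets, 64 were controls, 34945 had exactly 1 gene in the annotation of 2016, 932 several and 9160 none. Symbols were updated through Entrez ID for 34741 (names only, GRCm38.p6). For each of 18193 genes the probe set with the highest mean stood for the gene, and the filter kept features that exceeded the array median on 4 or more arrays. The genotypes were compared with limma 3.58.1 in R 4.3.3, with no covariate, two-sided, with Benjamini-Hochberg adjustment over all 10763 genes or all 19211 probe sets and a threshold of 0.05. Unless another fit is named, each adjusted p comes from the gene fit where a probe set stands for its gene, and otherwise from the probe set fit. The fit without the filter covered all 34945 probe sets with exactly 1 gene, and its p-values were adjusted over these. For single probe sets an exact permutation test, two-sided, was also run. The procedure was tested on simulated data. Figures were drawn with matplotlib 3.10.9. Promoter sequences are RefSeq's (GRCm38.p6).

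All members and their probe sets are named. From each pathway list the members past the test were to be named, or, where none passed, the 2 with the smallest p; Cdk4 and Cdk6 were added after their values were seen. The members, lists and tests were chosen with earlier results of these data known. Replicate numbers were not taken to pair the samples. Deviations from the genotype means of same-numbered samples correlated at 0.0270, 0.0368, 0.0649 and 0.110 for replicates 1, 2, 3 and 037. Those of differently numbered samples correlated at −0.0888 to 0.0543. These values do not settle whether the numbers pair the samples. Alternatives were a block for the replicate number, another treatment of the tag 037, other normalizations, filters, gene summaries and variance models, array weights, and leaving out each sample.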

Additional observations from a re-analysis of the deposited data

Results flagged for a closer look

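Of the 66 sets of 4 values examined, 6 held 1 array well away from the remaining 3; chance gives about 1 in 20. Among the members, FLT3-ITD replicate 037 was lowest for Cdkn1b 1419497_at at 8.76, with the others at 9.35 to 9.41. Wild type replicate 1 was highest for Rbl1 1425166_at at 9.14, with the others at 8.10 to 8.17. FLT3-ITD replicate 037 was highest for the dim Rbl1 1454293_at at 4.83, with the others at 4.18 to 4.27. Among the pathway genes, FLT3-ITD replicate 3 was highest for Tfdp2 at 9.0 against 8.27 to 8.39, FLT3-ITD replicate 037 was highest for Rbx1 at 7.85 against 6.72 to 6.90, and wild type replicate 1 was highest for Smad3 at 8.88 against 8.36 to 8.44. FLT3-ITD replicate 037 also had the highest Gapdh difference between 3′ and 5′ control probe sets, at 2.99; its part in these values was not tested.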

How the results depend on the processing

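No member gene or member probe set passed the test in any of 18 alternatives for genes and 17 for probe sets. The 7 member genes kept the sign of their difference in all 125 values. Of 204 values of member probe sets 7 changed sign, all of Cdkn1a 1424638_at. Its difference of −0.01 became 0.26 with replicates 1 and 037 averaged, 0.01 with arrays centred on their medians and 0.20 with array weights. It was 0.39 with both arrays tagged 037 left out, and −0.21 to 0.29 on leaving out single samples. Both totals include alternatives that leave every member difference as it was, so that its sign could not change. These were the replicate block, the filter alternatives and the other variance model.

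Over all genes the calls moved more. With the replicate block 19 genes were higher and 3 lower, against 46 and 19 without it, and 25 and 4 probe sets against 57 and 23; same-numbered samples were not shown to be paired. With array weights 65 genes were higher and 30 lower, and 92 and 44 probe sets. With both arrays tagged 037 left out there were 26 and 5 genes and 38 and 3 probe sets. Averaging replicates 1 and 037 gave 13 lower probe sets, and no filter 7. Leaving out single samples gave 28 to 45 higher and 2 to 14 lower genes, and 36 to 58 higher and 2 to 15 lower probe sets; the cause was not tested. Dim probe sets limit what can be said of Cdkn1c, Cdkn2a and Cdkn2b.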
